A study of Homo sapiens with 59 samples.

Results

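The genes described here are 46 listed genes of the unfolded protein response and of the amino acid response, followed in macrophages of the human cell line THP-1 over 12 h with or without a PPARG ligand. They were chosen by name, without regard to their values, and a gene was kept if 1 of its probes was detected at p under 0.01 on 5 or more arrays. 41 of the 46 passed, of 11515 genes tested in all. ERN1, EIF2AK3, HERPUD1 and VLDLR-AS1 have no probe named for them in the annotation used here, and the probe for PDIA3 was detected on 1 array. VLDLR-AS1, an antisense RNA, has no role in either pathway.

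THP-1 is a line of leukaemic monocytes. The cells were differentiated with 10 ng/ml PMA for 40 h and kept for 2 h without PMA, so that every group, controls included, had been through PMA and its withdrawal. They then received 1 µM Rosiglitazone (RSG) or the vehicle DMSO for 0.5, 1.5, 3, 8 or 12 h. RNA was measured on Illumina bead arrays with 6 arrays in each of the 10 groups except RSG at 1.5 h, which had 5, and 59 arrays in all. Levels are given as background-corrected, quantile-normalized log2 intensity, on which a difference of 1 is a change of 2-fold. A gene was called where limma's adjusted p was under 0.05, adjusted over all 11515 genes. By the study's methods cells were plated and treated for each sample, but neither these nor the labels say whether replicates came from separate differentiations, so p-values measure the spread between these samples. In bulk RNA, fewer cells of a type and less RNA per cell cannot be told apart.

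A cell whose endoplasmic reticulum (ER) holds too many unfolded proteins signals through the sensors ATF6, ERN1 (IRE1) and EIF2AK3 (PERK). ATF6 and the spliced form of XBP1, which IRE1 makes, raise ER chaperones, folding enzymes and degradation factors. PERK, and in amino acid shortage another kinase, slow protein synthesis by phosphorylating eIF2α and thereby favour translation of ATF4, a transcription factor for amino acid transporters, synthetic enzymes, tRNA synthetases and the regulators DDIT3, TRIB3 and PPP1R15A. Much of this regulation is translational or by splicing, and the arrays measure RNA level alone. Secretory cells and macrophages rely on both arms when their output of secreted protein or their amino acid supply changes.

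Of the 59 arrays, 5 stood apart, with a median correlation with the other arrays of 0.895 to 0.931, against 0.959 to 0.986 for the remaining 54. They are RSG replicate 1 at 8 h, RSG replicates 2 and 5 at 12 h and DMSO replicates 4 and 6 at 12 h. On these 5 the mean log2 level of 7 inflammatory cytokine genes was 11.7 to 13.2, against 6.73 to 9.12 on the other arrays. That of 5 mature dendritic cell markers was 11.1 to 12.2, against 5.58 to 6.13. The markers LAMP3, CCR7 and CD80, and IL6 among the cytokine genes, were each detected on 5 arrays, the fewest the filter allows. Such genes passed only through the arrays where they were high, so part of each gap was fixed by the filter. The mean of 9 macrophage markers was 9.87 to 10.2 on the 5 arrays and 10.7 to 11.3 on the other 54, and all 9 were detected on every array. The mean of 8 interferon response genes was 11.1 to 12.9 on the 5 arrays and 6.59 to 7.92 on the others. The T cell, fibroblast and epithelial markers CD3G, COL1A1 and EPCAM were at 4.47 to 5.88 and were detected on 5, 12 and 32 arrays. EPCAM was at 5.52 to 5.88 on the 5 arrays and 4.55 to 5.70 on the others. Of the B cell markers, MS4A1 was detected on 22 arrays and CD79A on 57, and CD79B was detected on all 59, at 5.75 to 6.64 on the 5 arrays and 6.45 to 7.97 on the others. Since no array apart belongs to the groups at 0.5, 1.5 or 3 h or to DMSO at 8 h, differences between those groups are the same with 59 and with 54 arrays, and only their errors differ. Counts below are given for 59 arrays and then for the 54, a set defined from the data. Among the 54, replicates 1 to 3 and 4 to 6 of most groups lie on opposite sides of the main component of the residuals, which the labels do not explain and which held 25.1% of the residual variance. A fit with the side as a block was added after the data had been seen. On 13 of the 59 arrays the background, estimated from the authors' background-subtracted intensities, was over 75 (high background). DMSO replicates 3, 5 and 6 and RSG replicates 1, 3, 4 and 5 at 3 h were among them. The rest were at 8 or 12 h and none at 0.5 or 1.5 h, so high background is partly bound up with time.

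Promoters from RefSeq (GRCh38.p14), running from 250 bases before to 50 after a gene's start, were available for 38 of the 41 genes and were searched on both strands for 4 elements known to serve these pathways. The ER stress response element (CCAAT and CCACG with 9 bases between them), which ATF6 and NF-Y bind, lay in 7 of the 38 (XBP1, HSPA5, HSP90B1, PDIA6, CALR, CANX and CRELD2), against 0.0916% of all 27305 genes with such a window. ERSE-II (ATTGG and CCACG with 1 base between) lay in SDF2L1, against 0.0696% of genes. The core of the C/EBP-ATF response element (TGATGNAA), a site for ATF4 with C/EBP partners, lay in 8 (CHAC1, ASNS, CEBPG, SLC3A2, SLC7A1, AARS1, GARS1 and MARS1), against 4.46%. The unfolded protein response element TGACGTGG was in none of the 38, against 0.927%. The last 5 letters of TGACGTGG are CCACG read on the other strand, so those motifs can overlap, and no gene of the list held more than 1 kind of element. A match describes letters in this window and is neither a bound site nor a cause of any change below. Matches in 4 genes with the ER element and 4 with the ATF4 element are shown because genes with the same element took different courses below, with the fixed letters of the motif in capitals and 20 bases on each side.
HSPA5, chr9:125241371-125241429, minus strand: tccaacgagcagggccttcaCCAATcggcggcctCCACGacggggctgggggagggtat
XBP1, chr22:28800583-28800641, minus strand: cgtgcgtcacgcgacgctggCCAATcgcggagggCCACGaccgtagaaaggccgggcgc
CRELD2, chr22:49918534-49918592, plus strand, motif on the opposite strand: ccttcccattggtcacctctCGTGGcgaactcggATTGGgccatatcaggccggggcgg
SDF2L1, chr22:21642094-21642144, plus strand, ERSE-II on the opposite strand: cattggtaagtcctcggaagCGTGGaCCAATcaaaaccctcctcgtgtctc
ASNS, chr7:97872449-97872496, minus strand: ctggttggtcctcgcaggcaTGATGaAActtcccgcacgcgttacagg
AARS1, chr16:70289666-70289713, minus strand, motif on the opposite strand: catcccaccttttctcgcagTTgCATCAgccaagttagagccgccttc
GARS1, chr7:30594825-30594872, plus strand, motif on the opposite strand: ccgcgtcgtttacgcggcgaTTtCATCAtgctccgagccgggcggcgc
CHAC1, chr15:40953242-40953289, plus strand, motif on the opposite strand: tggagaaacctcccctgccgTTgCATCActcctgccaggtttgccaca

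In DMSO, most genes of the ATF4 arm that changed fell with time, while a group of ER chaperones rose. At 8 h against 0.5 h, 5 of the 41 genes were higher and 12 lower with 59 arrays, where 14.9% and 9.74% of all genes were called in those directions, and 9 were higher and 14 lower with 54 arrays (21.2% and 15.3% of all genes). At 12 h against 0.5 h, 1 was higher and 14 lower with 59 arrays (17.1% and 14.6% of all genes), and 6 were higher and 21 lower with 54 (21.3% and 16.1%). The share of lower calls stood above that of all genes at both times, while the share of higher calls was close to it or below. The median difference of the 41 genes was −0.17 at 8 h, against 0.02 for all genes tested, and −0.29 at 12 h with 54 arrays, against 0.00. Where groups of arrays are said below not to overlap, the share of all genes for which this held was not counted. A lack of overlap thus describes the levels of that gene and does not set it apart from other genes.

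**Figure D1:**
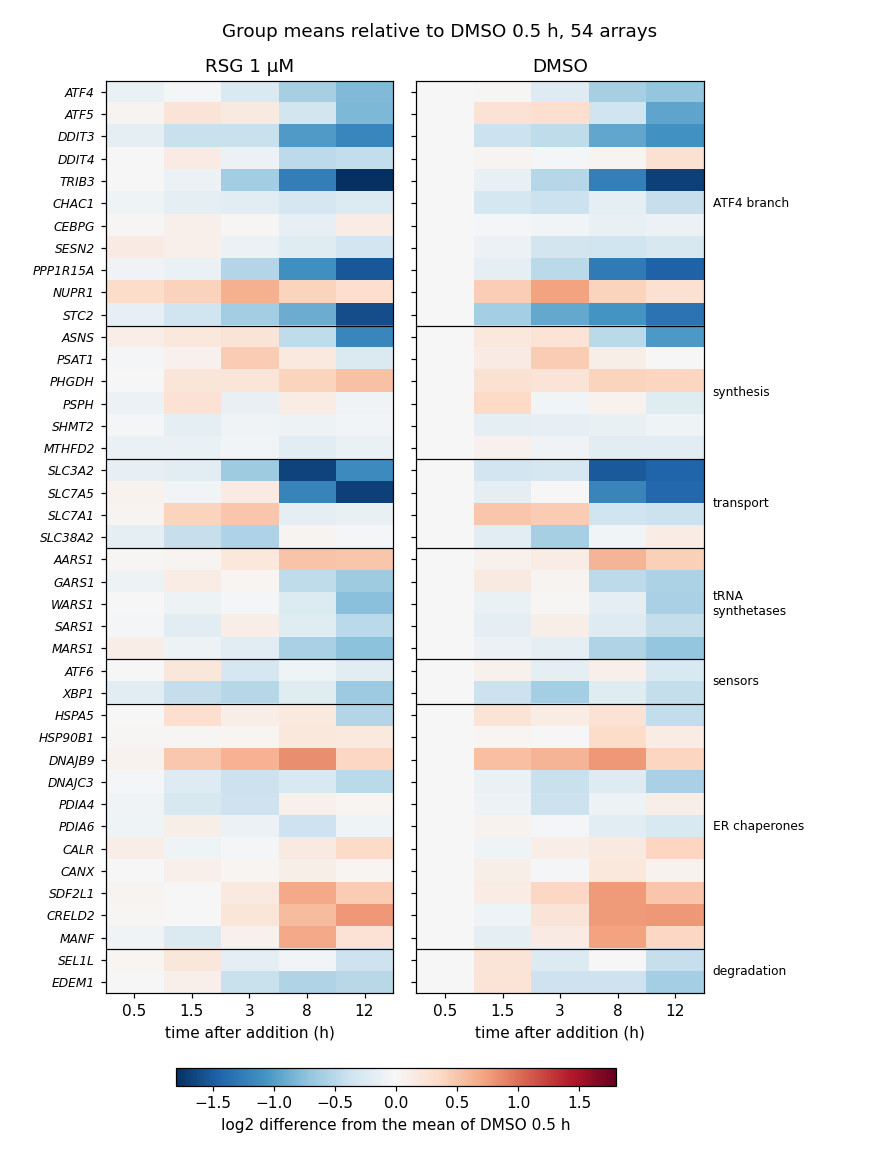
Mean log2 level of each of the 41 genes in each group of the 54 arrays, minus its mean in DMSO at 0.5 h, by time after addition (h) for RSG (left) and DMSO (right), with genes ordered by role. TRIB3, PPP1R15A, SLC7A5 and SLC3A2 darken to blue at 8 and 12 h in both panels, and DNAJB9, SDF2L1, CRELD2 and MANF turn red.

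Fewer genes had moved early. At 1.5 h against 0.5 h in DMSO, 2 genes were higher and 0 lower with 59 arrays (0.486% and 0.408% of all genes), and 3 were higher and 0 lower with 54 (2.9% and 3%). At 3 h, 3 were higher and 5 lower with 59 arrays (5.36% and 3.92%), and 4 were higher and 9 lower with 54 (12% and 9.08%). DMSO replicates 3, 5 and 6 at 3 h had high background and no array of 0.5 h had it, so the 2 cannot be fully told apart. The first to rise were DNAJB9 and the cationic amino acid transporter SLC7A1, and those lower by 3 h with 59 arrays were DDIT3, STC2, SLC38A2, DNAJC3 and XBP1. The count of 2 at 1.5 h was 1 without DMSO replicate 2 or 4 at 0.5 h or replicate 5 at 1.5 h, and 0 without DMSO replicate 4 or 6 at 1.5 h. The count of 3 with 54 arrays was 5 without DMSO replicate 3 at 1.5 h, and 6 with the side as a block. In these altered fits the share of all genes called was not counted, so the moves are not results about these genes. Of the single calls with 59 arrays, that of SLC7A1 at 1.5 h held in 10 of 12 fits that left out 1 array and was lost without DMSO replicate 4 or 6 at 1.5 h. That of DNAJB9 held in 7 of 12 and was lost without DMSO replicate 2 or 4 at 0.5 h or replicate 4, 5 or 6 at 1.5 h. That of DDIT3 at 3 h held in 7 of 12 and was lost without DMSO replicate 4, 5 or 6 at 0.5 h or replicate 1 or 4 at 3 h.

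Of the ATF4 branch regulators, 6 of 11 were lower at 8 h and none higher with 59 arrays (9.74% and 14.9% of all genes). With 54 arrays 7 were lower and 1 higher (15.3% and 21.2%). SESN2, among those lower, was detected on 0 of the 6 DMSO arrays at 8 h. TRIB3, a pseudokinase that ATF4 and DDIT3 induce and that restrains ATF4, had median levels in DMSO of 9.76 at 0.5 h, 9.60 at 1.5 h, 9.08 at 3 h, 8.48 at 8 h and 7.73 at 12 h. At 8 h its lowest and highest levels were 8.07 and 8.57, against 9.34 and 9.81 at 0.5 h, so the groups did not overlap. The difference was −1.23 at 8 h (SE 0.224, adjusted p = 2.49e-05, 59 arrays). It reached −2.16 at 12 h (SE 0.224, adjusted p = 3.44e-11) and −1.68 (SE 0.143) without the arrays apart, where TRIB3 was lower still.

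PPP1R15A (GADD34), the phosphatase subunit that reverses eIF2α phosphorylation, followed a like course. Its levels in DMSO at 8 h were 11.09 to 11.24 with a median of 11.20, against 12.21 to 12.63 with a median of 12.47 at 0.5 h. The groups lay more than their own ranges apart, and the difference was −1.27 (SE 0.198, adjusted p = 1.74e-06). At 12 h it was −1.09 with 59 arrays, where DMSO ranged from 10.57 to 12.12, and −1.45 with 54, where the highest array was at 11.51.

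DDIT3 (CHOP), the transcription factor that links lasting ER stress to cell death, had levels of 8.69 to 8.91 with a median of 8.84 in DMSO at 8 h, against 9.26 to 10.05 with a median of 9.80 at 0.5 h. All 8 h arrays were below all 0.5 h arrays, with a difference of −0.94 (SE 0.14, adjusted p = 7.41e-07). It was −0.90 at 12 h with 59 arrays and −1.09 with 54.

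ATF4, the transcription factor of this arm, had levels in DMSO of 13.28 to 13.86 with a median of 13.55 at 8 h, against 14.02 to 14.30 with a median of 14.15 at 0.5 h, a difference of −0.60 (SE 0.0898, adjusted p = 7.34e-07). The groups did not overlap. Its other probes fell by 1.27 and 1.48 on the log2 scale, so the probe used, the one of highest mean, gave the smallest change. STC2, a secreted glycoprotein induced in ER stress, was lower at 3 h and after, with median levels of 6.88, 6.31, 5.84, 5.75 and 5.18 at 0.5, 1.5, 3, 8 and 12 h. It was detected on 53 of the 59 arrays, and its difference at 8 h was −1.07 (SE 0.236, adjusted p = 0.000416).

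NUPR1, a small stress-induced chromatin protein, was higher at 3 h, at 6.99 to 7.40 with a median of 7.14, against 6.04 to 6.81 with a median of 6.39 at 0.5 h. The difference was 0.73 (SE 0.188, adjusted p = 0.00793), while a second NUPR1 probe, detected on all 59 arrays, gave 0.40 and was not called with either set (adjusted p = 0.124 and 0.0536). By 12 h the first probe's difference was 0.05 with 59 arrays and 0.28 with 54, not called. ATF5, a factor related to ATF4, was at −0.37 at 8 h and −0.95 at 12 h with 54 arrays (adjusted p = 0.00802 and 1.42e-08). With 59 arrays the 12 h value was −0.02 (adjusted p = 0.983). ATF5 was high on the arrays apart. SESN2, a nutrient-sensing inhibitor of mTORC1, was called lower at 8 h, but it was detected on 8 of 59 arrays and on 0 of the 6 DMSO arrays at 8 h, against 2 of the 6 at 0.5 h, so no fold is given. CHAC1, a glutathione-degrading enzyme detected on 52 of the 59 arrays, was lower with 54 arrays at 3 h and 12 h, at −0.39 and −0.42. CEBPG, a partner of ATF4, was not called in DMSO at any time with either set.

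**Figure D2:**
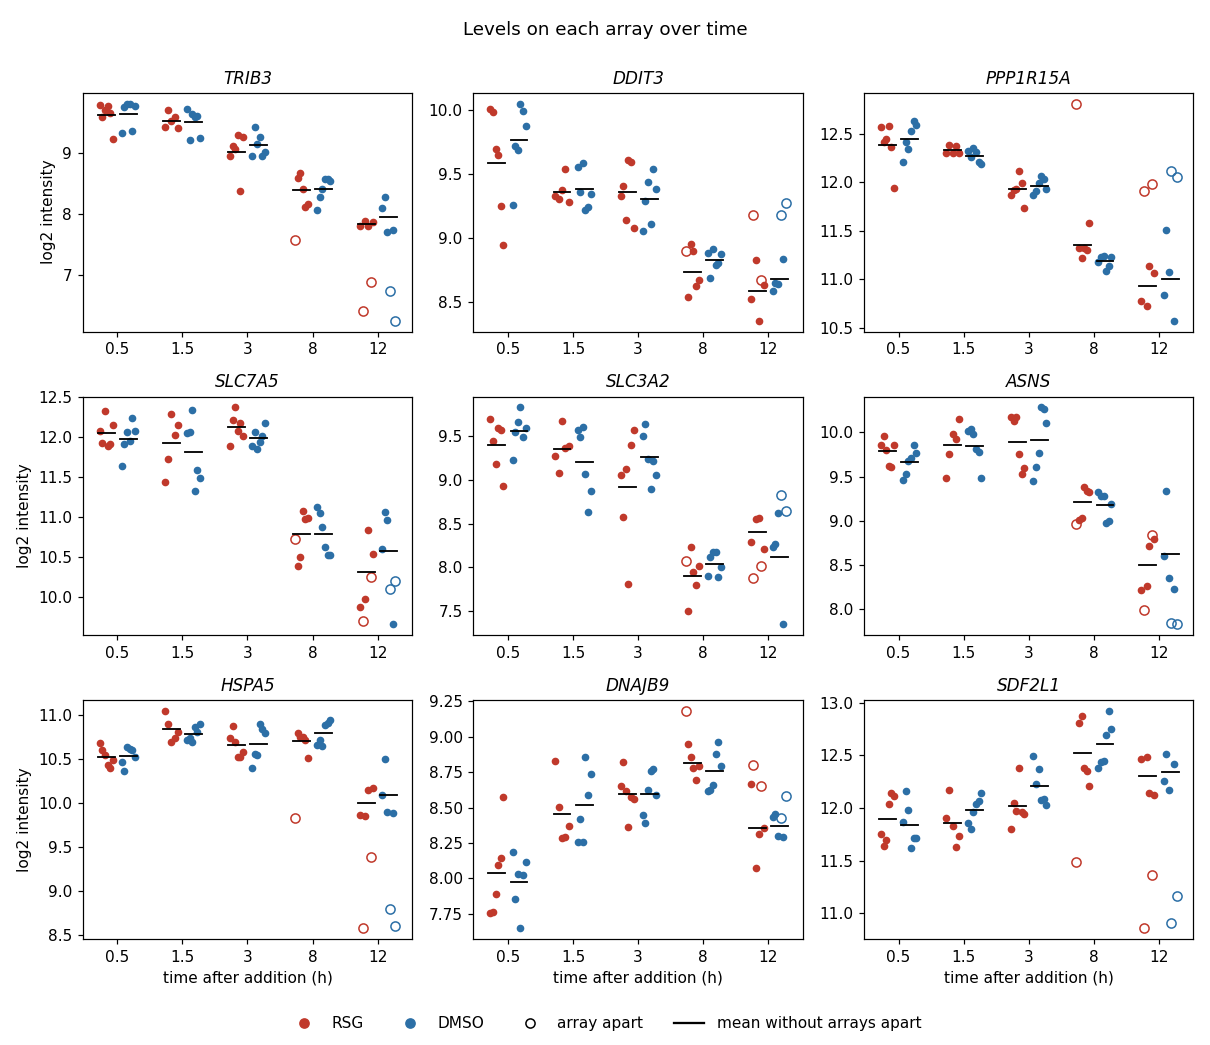
Log2 intensity of 9 genes on each array against time after addition (h), RSG in red left of DMSO in blue, with lines at group means of the 54 arrays and open circles for the 5 arrays apart. TRIB3, with DMSO medians of 9.76 at 0.5 h and 8.48 at 8 h, steps down at each time from 3 h, and HSPA5 drops between 8 and 12 h.

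Of the amino acid transporters, 3 of 4 were lower at 8 h and 12 h in DMSO with either set of arrays. For all genes the share lower at these times was 9.74% and 14.6% with 59 arrays, and 15.3% and 16.1% with 54. SLC3A2, the heavy chain that carries several transporters to the cell surface, had levels of 7.89 to 8.18 with a median of 8.06 at 8 h, against 9.23 to 9.83 with a median of 9.57 at 0.5 h. All 8 h arrays lay more than 1 unit below all 0.5 h arrays, and the difference of −1.51 (SE 0.203, adjusted p = 6.33e-08) was the largest fall of any of the 41 genes at that time. Its partner SLC7A5, which imports leucine and other large neutral amino acids, was at 10.52 to 11.12 with a median of 10.75 at 8 h, against 11.63 to 12.23 with a median of 12.00 at 0.5 h. The groups did not overlap, and the difference was −1.19 (SE 0.181, adjusted p = 9.85e-07), against 0.01 at 3 h.

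SLC7A1, which imports arginine and lysine, first rose and then fell. Its median levels in DMSO were 10.23, 10.72, 10.66, 9.88 and 9.81 at 0.5, 1.5, 3, 8 and 12 h. The differences from 0.5 h were 0.49 at 1.5 h (SE 0.107, adjusted p = 0.0142) and −0.35 at 8 h (SE 0.107, adjusted p = 0.0103). SLC38A2, a carrier of small neutral amino acids, was lower at 3 h and was not called at other times, with levels of 9.25 to 9.62, against 9.73 to 10.32 at 0.5 h (difference −0.60, SE 0.194, adjusted p = 0.0377). That call, with 59 arrays, held in 5 of 12 fits that left out 1 array and was lost without DMSO replicate 4, 5 or 6 at 0.5 h or replicate 1, 2, 3 or 4 at 3 h, while with 54 arrays it held in all 12. At 8 h its difference was −0.05.

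Among 6 enzymes of amino acid synthesis and one-carbon metabolism, ASNS alone was called with 59 arrays. ASNS (asparagine synthetase), a classic ATF4 target whose promoter window is shown above, had median levels of 9.69, 9.90, 9.94, 9.23 and 8.29 at 0.5, 1.5, 3, 8 and 12 h in DMSO. It was lower at 8 h by a difference of −0.49 (SE 0.169, adjusted p = 0.0253) and at 12 h by −1.30 with 59 arrays and −1.04 with 54 (adjusted p = 1.59e-08 and 8.41e-07). The 8 h call with 59 arrays was lost without DMSO replicate 5 at 0.5 h or replicate 4 or 5 at 8 h, and a second ASNS probe, detected on 50 arrays, was at −0.29 at 8 h and not called (adjusted p = 0.415). PHGDH, the first enzyme of serine synthesis, went the other way with 54 arrays, at 0.41 at 8 h and 0.39 at 12 h (adjusted p = 0.0127 and 0.0338), where the 12 h call was lost without DMSO replicate 1 or 2 at 0.5 h or replicate 1 or 2 at 12 h. With 59 arrays its 12 h difference was −0.53 (adjusted p = 0.33). PHGDH was lowest on the arrays apart. PSAT1, PSPH, SHMT2 and MTHFD2, which act in the same pathways, were not called in DMSO at any time with either set.

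The tRNA synthetases, which load amino acids onto tRNAs, split. AARS1, for alanine, had levels of 12.50 to 12.84 with a median of 12.64 in DMSO at 8 h, against 11.87 to 12.20 with a median of 12.03 at 0.5 h. All 8 h arrays were above all 0.5 h arrays, with a difference of 0.61 (SE 0.16, adjusted p = 0.00317). MARS1, for methionine, was at 7.88 to 8.14 with a median of 8.03 at 8 h, against 8.37 to 8.85 with a median of 8.54 at 0.5 h, and its difference was −0.54 (SE 0.17, adjusted p = 0.0134). GARS1, for glycine, fell by 0.47 on the log2 scale at 8 h. At 12 h with 54 arrays all 5 were called, AARS1 higher at 0.42 and GARS1, MARS1, SARS1 and WARS1 lower at −0.56, −0.70, −0.43 and −0.59. Of all genes, 21.3% were called higher and 16.1% lower there. WARS1, for tryptophan, is also an interferon-induced gene, and with 59 arrays its 12 h difference was 0.27 (adjusted p = 0.663). At 8 h with 54 arrays a second WARS1 probe was at −0.38 (limma adjusted p = 0.00173), where the first, at −0.17, was not called. AARS1 and GARS1 moved oppositely, and both promoter windows above hold the ATF4 element.

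Most of the genes that were higher at 8 h were ER chaperones and their partners. At 8 h in DMSO 4 of 11 were higher and 0 lower with 59 arrays (14.9% and 9.74% of all genes). With 54 arrays 6 were higher and 1 lower (21.2% and 15.3%). The median of the 11 was 0.26, against 0.02 for all genes tested. DNAJB9 (ERdj4), a cochaperone of HSPA5 that also restrains IRE1, rose first, with median levels in DMSO of 8.03, 8.50, 8.61, 8.73 and 8.43 at 0.5, 1.5, 3, 8 and 12 h. Its difference was 0.54 at 1.5 h (SE 0.122, adjusted p = 0.0196) and 0.78 at 8 h (adjusted p = 1.73e-06), when its lowest array, at 8.62, was above the highest of 0.5 h, at 8.19.

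SDF2L1, an ER protein of the chaperone complex, had levels of 12.38 to 12.92 with a median of 12.57 in DMSO at 8 h, against 11.62 to 12.16 with a median of 11.79 at 0.5 h. CRELD2, a disulfide isomerase, was at 11.56 to 12.14 with a median of 11.77 at 8 h, against 10.81 to 11.26 with a median of 11.07 at 0.5 h. MANF, a secreted ER protein that binds HSPA5, was at 12.88 to 13.17 with a median of 12.98 at 8 h, against 12.16 to 12.47 with a median of 12.27 at 0.5 h. For each of these 3 genes the groups did not overlap, and the differences were 0.76, 0.77 and 0.72 (SE 0.215, 0.23 and 0.177, adjusted p = 0.00581, 0.0091 and 0.00156). At 12 h they were 0.50, 0.77 and 0.38 with 54 arrays, all called, and 0.06, 0.21 and 0.00 with 59, none called.

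HSPA5 (BiP), the main ER chaperone and the regulator of all 3 sensors, did not follow them. Its median levels in DMSO were 10.56, 10.77, 10.68, 10.80 and 9.89 at 0.5, 1.5, 3, 8 and 12 h. At 8 h the difference was 0.26, called with 54 arrays (SE 0.0912, adjusted p = 0.0211) and not with 59 (adjusted p = 0.378). That call was lost without DMSO replicate 2 at 0.5 h or replicate 5 or 6 at 8 h. At 12 h it was −0.91 with 59 arrays and −0.44 with 54 (adjusted p = 0.000272 and 0.000419). DNAJC3 (P58IPK), a cochaperone that restrains PERK, was lower at 3 h, at −0.41, and at 12 h, at −0.51 (adjusted p = 0.00367 and 3.66e-05, 59 arrays), and at 8 h its −0.24 was called with 54 arrays only, in 5 of 12 fits that left out 1 array, those without DMSO replicate 3, 5 or 6 at 0.5 h or replicate 4 or 6 at 8 h. Thus HSPA5, CRELD2 and SDF2L1, whose promoters all hold an ER stress element, differed in direction at 12 h with 54 arrays. CALR, CANX and PDIA6, which fold and oxidise secreted proteins, were not called against 0.5 h at any time in DMSO with either set. HSP90B1 was called higher at 8 h, at 0.33, and PDIA4 lower at 3 h, at −0.39, each with 54 arrays only.

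XBP1, the factor downstream of IRE1, had median levels in DMSO of 11.16, 10.80, 10.59, 10.93 and 10.49 at 0.5, 1.5, 3, 8 and 12 h. At 3 h its levels were 10.36 to 10.62, against 11.05 to 11.26 at 0.5 h, with no overlap and a difference of −0.61 (SE 0.169, adjusted p = 0.0151). It was −0.22 at 8 h, not called, and −0.78 at 12 h with 59 arrays and −0.43 with 54 (adjusted p = 0.000267 and 0.0101), where the call was lost without DMSO replicate 1 or 5 at 12 h. A second XBP1 probe, detected on all 59 arrays, was at −0.57 at 3 h (limma adjusted p = 0.0232, 59 arrays) and −0.33 at 8 h, not called. At 12 h it was at −0.72 with 59 arrays and −0.42 with 54, called with each. The level given for XBP1 does not separate the spliced from the unspliced form. SEL1L and EDEM1, of ER-associated degradation, were lower at 12 h with 54 arrays, at −0.41 and −0.60. With 59 arrays SEL1L was called at −0.56 and EDEM1, at 0.07, was not. SEL1L was detected on 55 of the 59 arrays.

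A comparison of DMSO at 12 h with 8 h was added after the values had been seen. With 59 arrays 0 of the 41 genes were higher and 10 lower, where 3.27% and 5.7% of all genes were called in those directions, and with 54 arrays 0 were higher and 6 lower (2.01% and 1.75%). The 6 were HSPA5 (−0.70), ATF5 (−0.59), ASNS (−0.55), WARS1 (−0.42), ATF6 (−0.37) and MANF (−0.34). ATF6, the ER-anchored sensor, was otherwise called with 54 arrays in DMSO only at 12 h against 0.5 h, at −0.28.

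The same comparisons were made within RSG. At 1.5 h against 0.5 h, 0 of the 41 genes were called in limma with 59 arrays, where 0.00868% of all genes were called in each direction, and 0 with 54 (0.521% higher and 0.486% lower). Before adjustment 2 and 7 genes had a limma p under 0.05. No share of all genes is given beside these counts, so nothing is drawn from them. At 3 h, 2 were higher and 1 lower with 59 arrays (3.38% and 1.64% of all genes), and 2 were higher and 6 lower with 54 (9.09% and 4.99%). At 8 h, 2 were higher and 12 lower with 59 arrays (12.1% and 9.52%), and 6 were higher and 15 lower with 54 (19.3% and 14%). At 12 h, 1 was higher and 16 lower with 59 arrays (17.1% and 15%), and 6 were higher and 20 lower with 54 (20.1% and 17.8%). Without RSG replicate 6 at 0.5 h the 3 h count was 5 with 59 arrays and 16 with 54, and without it, or without RSG replicate 3 or 4 at 1.5 h, the 1.5 h count with 54 arrays was 1. With the side as a block, the 54 arrays gave 3 at 1.5 h and 14 at 3 h. For these altered fits the share of all genes called was not counted, so a count that moves is not a result about these genes.

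TRIB3 had median levels in RSG of 9.68, 9.52, 9.09, 8.28 and 7.81 at 0.5, 1.5, 3, 8 and 12 h, and its difference at 8 h was −1.37 in RSG and −1.23 in DMSO. SLC7A5 had median levels in RSG of 12.00, 12.02, 12.12, 10.85 and 10.11 at these times, with a difference at 8 h of −1.28 in RSG and −1.19 in DMSO. DNAJB9 was at 0.84 in RSG and 0.78 in DMSO at 8 h, and HSPA5 at −0.86 in RSG and −0.91 in DMSO at 12 h. These differences are with 59 arrays, and HSPA5 was low on the arrays apart. With 54 arrays and 1 more left out, HSPA5 at 12 h was at −0.57 to −0.47 in RSG and −0.57 to −0.37 in DMSO. Other genes lay further apart. NUPR1 at 3 h was at 0.30 in RSG, not called, and 0.73 in DMSO. Its levels at 3 h were alike, 6.8 to 7.4 in RSG and 7.0 to 7.4 in DMSO. At 0.5 h, the time each is set against, it was 0.33 higher in RSG, which was not called. At 8 h PPP1R15A was at −0.79 in RSG and −1.27 in DMSO, CRELD2 at 0.41 and 0.77, SDF2L1 at 0.46 and 0.76, and AARS1 at 0.33 and 0.61, and CRELD2, SDF2L1 and AARS1 were not called in RSG with 59 arrays. With 54 arrays these 4 were at −1.04, 0.55, 0.63 and 0.50 in RSG, all called. The difference between the treatments in their course was tested as the interaction of treatment and time, over all 5 times. It was called for 0 of the 41 genes with 59 arrays, where it was called for 0% of all genes, and for 0 with 54, where it was called for 0.399%. Before adjustment 0 and 1 had a p under 0.05, and that gene was DDIT4 (limma adjusted p = 0.146). Without RSG replicate 5 at 0.5 h, 1 gene was called with 54 arrays. For that fit, and for p before adjustment, no share of all genes is given here. An interaction that was not called does not show that the courses were alike.

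RSG against DMSO at the same time was the comparison the arrays were made for. PDK4, a PPARG target that checks the ligand, was higher in RSG by 3.42 at 8 h (SE 0.441, adjusted p = 4.02e-07, 54 arrays), and by 2.70 with 59 arrays, which was not called (adjusted p = 0.0921). Of the 41 genes, 0 were called at 0.5, 1.5, 3, 8 or 12 h with 59 arrays, where 0%, 0%, 0%, 0.0955% and 0.0261% of all genes were called in either direction. With 54 arrays 0, 0, 0, 1 and 1 were called at these times, against 0%, 0.0521%, 0%, 1.15% and 1.82% of all genes. Genes with an unadjusted limma p under 0.05 numbered 0, 0, 0, 1 and 1 with 59 arrays, and 1, 1, 0, 2 and 3 with 54. These counts, too, stand without the share of all genes, and nothing is drawn from them. The median difference of the 41 genes at 8 h was −0.04 with 59 arrays and −0.01 with 54, against −0.01 for all genes tested in each.

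The size of change that these arrays leave possible differs by gene. With 54 arrays the 95% interval of the difference lay within 0.5 of 0 for 37 of the 41 genes at 0.5 h, 37 at 1.5 h, 39 at 3 h, 35 at 8 h and 31 at 12 h. With 59 arrays it did for 29, 26, 29, 24 and 30. At 8 h with 54 arrays TRIB3 differed by −0.02 (95% interval −0.28 to 0.25), HSPA5 by −0.09 (−0.28 to 0.10) and XBP1 by 0.00 (−0.26 to 0.26).

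The gene called with 54 arrays was DDIT4 (REDD1), a stress-induced inhibitor of mTORC1 that ATF4, hypoxia and glucocorticoids raise. At 8 h its levels on the RSG arrays not apart were 6.54, 6.48, 6.40, 6.54 and 6.32, against 6.97, 6.98, 6.81, 6.97, 6.97 and 7.11 on the DMSO arrays. RSG replicate 1, which stood apart, was at 9.53. The 5 RSG arrays were thus all below the 6 DMSO arrays, and the difference was −0.52 with 54 arrays (95% interval −0.80 to −0.23, adjusted p = 0.0494). With all 59 arrays it was −0.0033 (adjusted p = 0.998).

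At 12 h the RSG arrays not apart had DDIT4 levels of 6.61, 6.74, 6.41 and 6.20, against 7.12, 7.07, 7.09 and 7.50 on the DMSO arrays. The arrays apart were at 9.41 and 8.69 in RSG and at 9.31 and 9.52 in DMSO. Without them the groups did not overlap, and the difference was −0.71 (95% interval −1.04 to −0.38, adjusted p = 0.0096). It was −0.59 with 59 arrays (adjusted p = 1). At 0.5, 1.5 and 3 h the difference was −0.01, 0.10 and −0.07. Averaged over the 5 times, the RSG minus DMSO difference of DDIT4 was −0.24 (SE 0.0638, limma adjusted p = 0.0239, 54 arrays). On that average DDIT4 was the 1 gene called of the 41, against 2.54% of all genes. The differences at 8 and 12 h carry the average.

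The 8 h call was narrow. Leaving out 1 more array of the groups compared kept it in 1 of 11 fits at 8 h, with differences of −0.55 to −0.48, where DMSO replicate 3 was left out, and in 6 of 8 fits at 12 h, with −0.79 to −0.60, being lost without DMSO replicate 5 or RSG replicate 6. Without the arrays of high background the differences were −0.53 at 8 h and −0.75 at 12 h and neither was called, and with the replicate number as a block the 8 h difference of −0.53 was not called. Within either side of the main component of the residuals the RSG difference of DDIT4 was −0.51 and −0.50 at 8 h and −0.83 and −0.79 at 12 h. DMSO replicate 5 was the only DMSO array on the first side at 12 h, so the −0.83 rests on it. The sides were themselves drawn from these data.

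**Figure D3:**
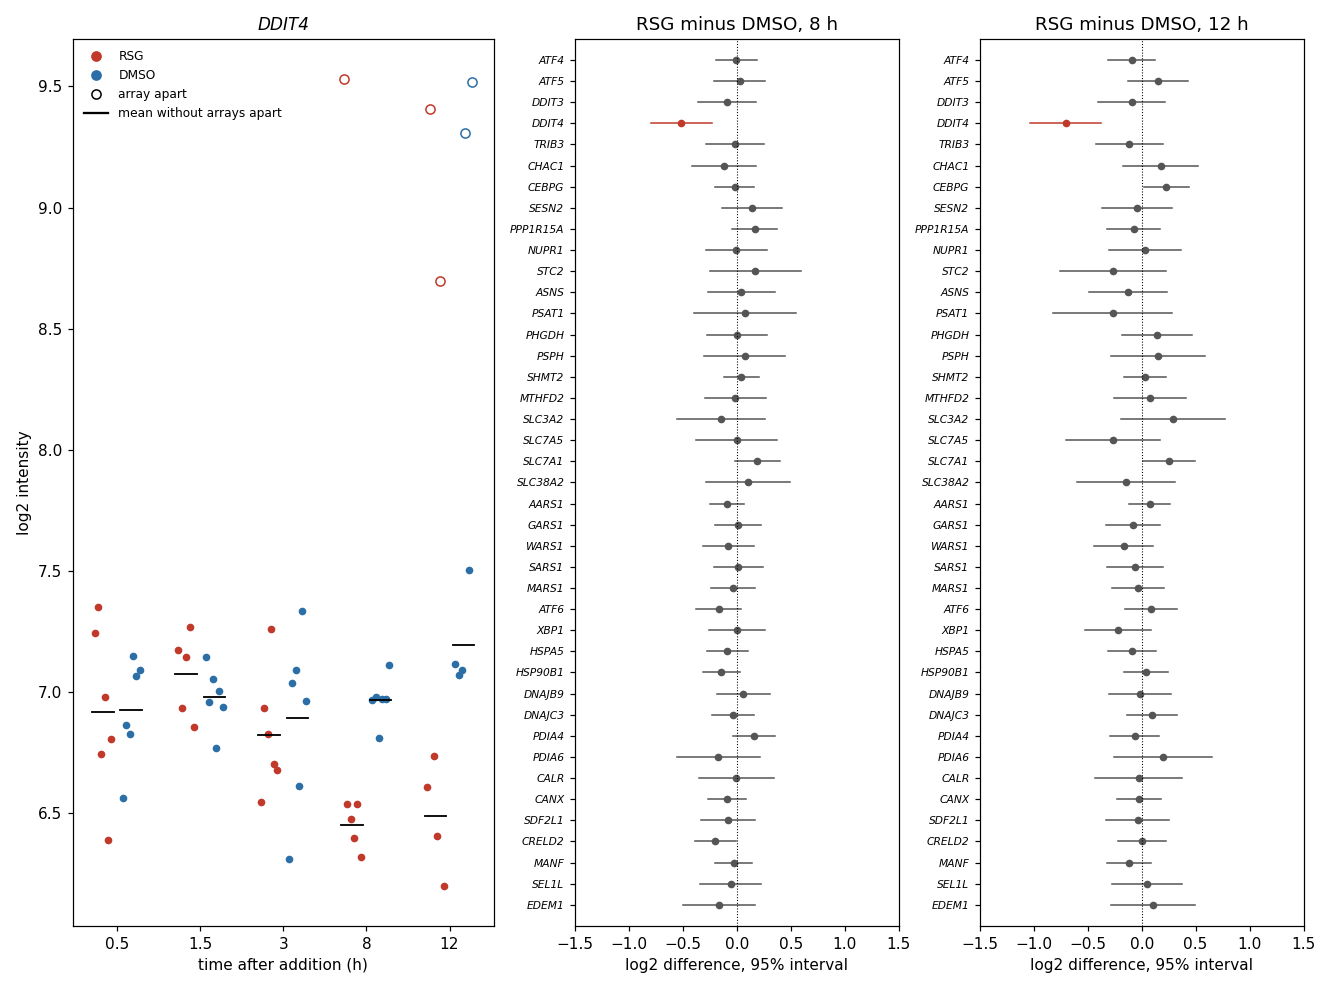
Left, log2 intensity of DDIT4 on each array by time (h), RSG in red left of DMSO in blue, with open circles for the arrays apart and lines at the means without them. Middle and right, log2 difference of RSG minus DMSO at 8 and 12 h for the 41 genes with 95% intervals from the 54 arrays, where DDIT4, in red, is the one gene called, at −0.52 and −0.71.

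Other genes of both pathways were taken from lists of their targets and machinery and compared in DMSO at 8 h, where 21.2% of all genes were higher and 15.3% lower with 54 arrays, and 14.9% and 9.74% with 59. Of 29 further amino acid response genes tested, 3 were higher and 9 lower with 54 arrays, and 2 were higher and 5 lower with 59, with a median of −0.02. VEGFA, a growth factor that ATF4 can induce, was at −1.16, CARS1, the cysteine tRNA synthetase, at −1.08 and CEBPB, a partner of ATF4, at −0.77, while ALDH18A1, of proline synthesis, was at 0.69. Of 40 further ER genes tested, 4 were higher and 8 lower with 54 arrays, and 1 was higher and 6 lower with 59, with a median of −0.06. KDELR3, a receptor that returns ER proteins, was at 0.65 and called with 54 arrays only, and the folding enzymes PPIB and TXNDC5 were at −0.65 and −0.56. Neither list held a gene called between RSG and DMSO at 8 h with either set. At 12 h with 54 arrays ATF3, a stress factor downstream of ATF4, was higher in RSG by 0.53 (95% interval 0.26 to 0.81, adjusted p = 0.0224), against 0.17 with 59 arrays (adjusted p = 1).

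On the 5 arrays apart a few genes of the list lay far from the other arrays. A level on each was set against the mean of the other arrays of its time, RSG and DMSO together, as a description with no test, since these arrays were singled out by their values. On all 5 arrays 4 of the 41 genes were more than 1 above that mean and 2 more than 1 below it, where 506 and 653 of all 11515 genes were, and 35 of the 41 did neither. WARS1 was at 11.92 to 13.16 on the 5 arrays, against 9.73 to 10.74 on the other 19 arrays of 8 and 12 h. ATF5 was at 12.72 to 13.35, against 9.91 to 11.20, and DDIT4 at 8.69 to 9.53, against 6.20 to 7.50. These 3, with PHGDH, were named because they lay farthest from their peers on these arrays. That their levels do not overlap follows largely from this choice and is no separate result.

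The genes lowest on these arrays were PHGDH and PSAT1. PHGDH was at 7.34 to 9.02 on the 5 arrays, against 10.33 to 10.88 on the other 19, and PSAT1, the next enzyme of the pathway, at 5.40 to 6.80, against 7.20 to 8.73. PSPH, which completes serine synthesis, was not lower, at 5.24 to 6.18 with a median of 5.99, against 5.39 to 6.63 with a median of 5.89. MTHFD2, the mitochondrial one-carbon enzyme, was by contrast higher, at 11.10 to 11.39, against 9.56 to 10.16. TRIB3 was at 6.26 to 7.58, against 7.71 to 8.67, and HSPA5 at 8.57 to 9.83, against 9.85 to 10.94, while PPP1R15A was at 11.91 to 12.81, against 10.57 to 11.58. ATF4 was at 13.33 to 13.61, against 13.27 to 13.86, within the range of the others. The inflammatory and dendritic cell markers given above moved with these genes on the same 5 arrays, and their part in the values was not tested.

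**Figure D4:**
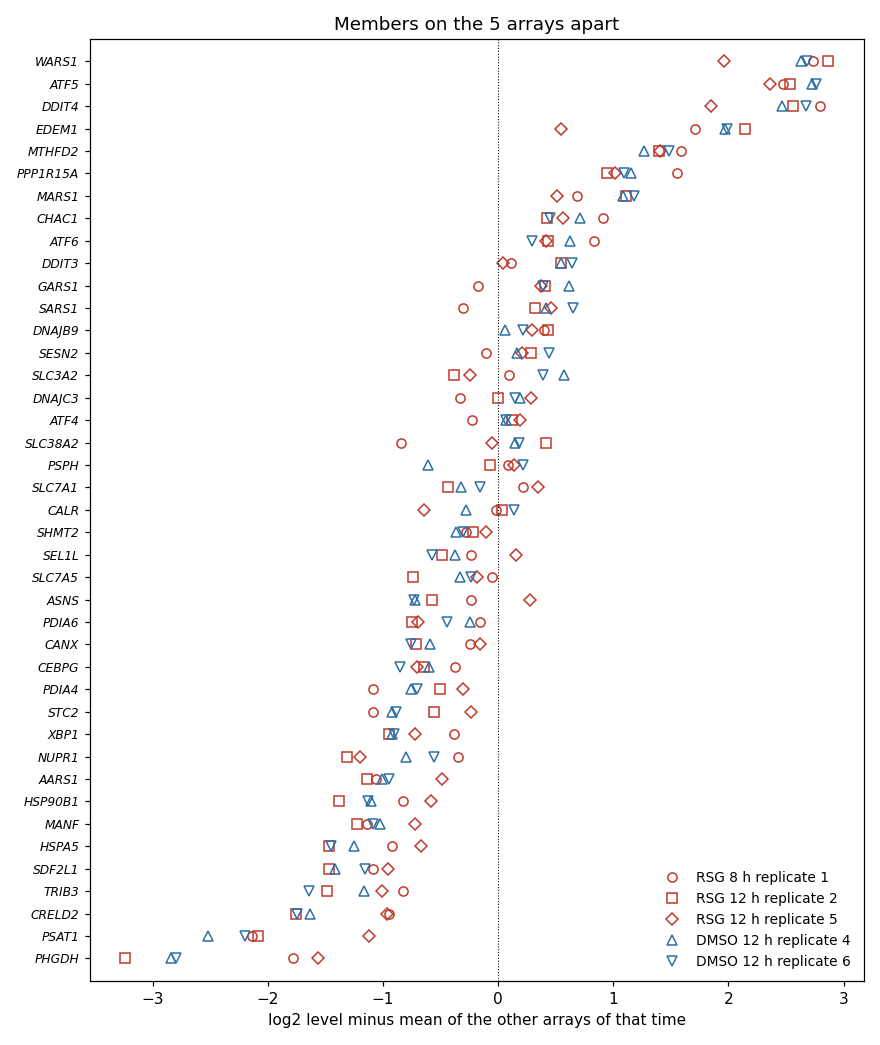
Log2 level of each of the 41 genes on each of the 5 arrays apart minus the mean of the other arrays of that time, genes ordered by the mean of the 5 values, RSG arrays in red and DMSO arrays in blue. WARS1, ATF5 and DDIT4 lie at the top and PHGDH and PSAT1 at the bottom on RSG and DMSO arrays alike.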

How the data were processed

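The deposited signal table holds the average bead intensity of each of 24531 probes on 59 arrays, not normalized by the authors. Beside each intensity the deposited table gives a detection p-value. The authors' second table, of background-subtracted intensity scaled to a common array mean in BeadStudio, was used as an alternative. Background was corrected by the normal-exponential model with an offset of 16 and arrays were quantile-normalized, in neqc of limma 3.58.1 (R 4.3.3). Each gene was represented by its kept probe of highest mean. Of 24526 probes in both tables, 21834 had 1 gene symbol, 0 had several and 2692 had none. Between 12186 and 13941 probes were detected per array, and the number of arrays limits the precision.

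In limma a separate mean was given to each of the 10 groups, with two-sided moderated tests and Benjamini-Hochberg adjustment over all genes. The genes, lists, rules and the set of 54 arrays were chosen with earlier results of these data known. Genes given by array values are ATF4, DDIT3, TRIB3, ASNS, HSPA5 and XBP1, up to 8 called genes of largest difference per direction in DMSO at 12 h and up to 4 in other comparisons, the 3 of smallest interaction p, and the 4 farthest from their peers on the arrays apart; other genes were named to account for every gene of the list, and of the further pathway genes those named were chosen after their values were seen. The model was tested on simulated data. Alternatives were other scalings, probe filters, block terms, array weights and sets of arrays.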

Additional observations from a re-analysis of the deposited data

Results flagged for a closer look

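A level far from the others of its group was looked for in 240 groups of the 24 named genes, by the gap of the highest or lowest array from its neighbour against the range of the group (Dixon's criterion). Chance marks about 1 group in 20. It marked 18, of which 11 were on RSG replicate 1 at 8 h, an array that stood apart, so the 18 are not independent.

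On that array the levels were 13.35 for ATF5, 9.53 for DDIT4, 12.81 for PPP1R15A, 13.16 for WARS1 and 8.69 for MARS1, above the other 5 arrays of the group. They were 8.75 for PHGDH, 9.83 for HSPA5, 10.78 for CRELD2, 11.86 for MANF, 9.20 for SLC38A2 and 11.54 for AARS1, below the others.

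RSG replicate 6 at 0.5 h, which did not stand apart, was below the other 5 arrays for TRIB3 at 9.23, PPP1R15A at 11.94 and XBP1 at 10.31. The remaining values were TRIB3 at 8.38 on RSG replicate 5 at 3 h, below its group, CRELD2 at 11.49 on DMSO replicate 1 at 3 h, above its group, and SLC38A2 at 9.54 on DMSO replicate 3 at 1.5 h and at 9.28 on DMSO replicate 6 at 8 h, both below.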

How the results depend on the processing

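Counts are of the 41 genes called, and each cause was not tested. Apart from the fits of 59 and 54 arrays above, the share of all genes called under each setting was not counted. A count that moves in this section is therefore not a result about these genes. With array weights DMSO against 0.5 h gave 7, 17 and 24 at 1.5, 3 and 12 h, and RSG gave 2, 20 and 22 at 1.5, 3 and 8 h. With only the 2 groups compared in the fit, DMSO gave 4 and 15 at 1.5 and 3 h. With 54 arrays in place of 59, RSG against DMSO gave 1 and 1, against 0 and 0, at 8 and 12 h, DMSO gave 13 and 27, against 8 and 15, at 3 and 12 h, and RSG gave 8 and 26, against 3 and 17, at those times. With 54 arrays and the authors' scaled table these were 1, 1, 13, 26 and, for RSG at 3 h, 8. With a side block, added after seeing the data, 54 arrays gave 1 and 1 for RSG against DMSO at 8 and 12 h, 6, 18 and 29 for DMSO at 1.5, 3 and 12 h, and 3, 14, 22 and 26 for RSG at 1.5, 3, 8 and 12 h. Without arrays of high background, also added, 54 arrays gave 24 for DMSO at 12 h, 3 for RSG at 3 h and 0 for RSG against DMSO at 8 and 12 h.

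The replicate number as a block left every count of the 59 arrays as it was (17 and 15 for DMSO at 8 and 12 h). With 54 arrays and the block, RSG against DMSO gave 0 at 8 h and 1 at 12 h, DMSO gave 13 and 27 at 3 and 12 h, and RSG gave 8 at 3 h. The numbers were not taken to pair arrays: residuals of same-numbered RSG and DMSO arrays correlated at −0.36 to −0.20 on average, and 0 to 1 arrays per time correlated best with their own number.

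Leaving out 1 array gave 0 to 2 for DMSO at 1.5 h and 2 to 5 for RSG at 3 h with 59 arrays. With 54 arrays it gave 2 to 5 for DMSO at 1.5 h, 0 to 1 for RSG at 1.5 h, 7 to 16 for RSG at 3 h, and 0 to 1 each for RSG against DMSO at 8 h, at 12 h and for the interaction.

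Among log2 differences called with 54 arrays, 7 changed sign with 59: PHGDH to −0.53 in DMSO and −0.31 in RSG at 12 h, WARS1 to 0.27 and 0.075, ATF5 to 0.027 in RSG at 8 h, and DDIT4 to 0.047 and 0.42 in RSG at 8 and 12 h. Of the remaining values of named genes under alternatives, 3209 kept direction and call and 188 lost the call. They include the fits that left out 1 array, which share nearly all arrays with the main fit, so the values are not independent. The authors' scaled table moved the median of all genes at 8 h in DMSO to 0.14, against 0.02, and 5 genes were higher and 8 lower there, as with average normalization.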
